A study of Mus musculus with 6 samples.

Results

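The immunity-related GTPases (IRG) examined here are the 6 genes Irgm1, Irgm2, Igtp, Iigp1, Tgtp1 and Tgtp2, which were taken by gene name from a table of 54532 genes in colonic tumors of mice. All 6 were found. They were chosen with the comparison of these tumors already known, in which Irgm2 had one of the smallest p-values. The differences between the groups are therefore given for these 6 genes as a description, and nothing is read from their p-values. RNA-sequencing covered 3 tumor samples of Tmem173fl/fl mice, labelled WT, and 3 of Tmem173fl/flLzym-Creert2 mice, labelled CRE and called Tmem173iΔmye. Both groups carried loxP sites around Tmem173, the gene encoding STING, on the C57BL/6N background, received azoxymethane and 3 cycles of dextran sodium sulfate (AOM/DSS), and were given tamoxifen after these cycles, once tumors had formed. By design, the groups thus differed in the Cre recombinase, which the Lyz2 promoter drives in myeloid cells, while all other cells of the tumor were meant to keep the gene. The age of the mice is not given for these groups in the sources used here, and the labels do not say that each sample came from a separate mouse, so the errors cover the spread between these samples.

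IRG proteins are interferon-inducible GTPases that mice use against bacteria and protozoa living in vacuoles of the cell. The effector proteins, such as those of Iigp1 (Irga6) and the Tgtp genes (Irgb6), load onto the vacuole membrane and break it. The regulator proteins, those of Irgm1, Irgm2 and Igtp (Irgm3), sit on the membranes of the cell itself, where they hold the effectors inactive. Interferon-gamma switches the genes on through GAS elements and ISRE elements in their promoters, the latter bound by IRF1 and related factors. In the intestine, Irgm1 is best known for its part in autophagy and in epithelial defence.

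The regulators and effectors are told apart by the nucleotide-binding loop of the protein, which ends in glycine, methionine and serine in regulators and in glycine, lysine and serine in effectors. The 24 bases that encode this loop are shown for 5 genes, from the GENCODE transcripts on GRCm38, 5′ to 3′, with the codon of methionine (ATG) or lysine (AAG) in capitals. They lie on chromosome 11, from 48866761 to 48866784 on the minus strand for Irgm1, from 58219695 to 58219718 on the plus strand for Irgm2, from 58206275 to 58206298 on the plus strand for Igtp, from 48987667 to 48987690 on the minus strand for Tgtp1 and from 49059534 to 49059557 on the minus strand for Tgtp2, each within a coding exon.
Irgm1: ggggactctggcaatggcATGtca
Irgm2: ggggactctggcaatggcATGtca
Igtp: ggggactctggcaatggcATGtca
Tgtp1: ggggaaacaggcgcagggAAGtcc
Tgtp2: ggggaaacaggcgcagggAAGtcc
The 3 regulators shared all of these bases, and so did both Tgtp genes. Iigp1 also had the lysine codon AAG at this place. Over the whole coding sequence, the regulators were 63.0% to 67.3% identical to each other, and Iigp1 was 57.7% identical to Tgtp1. Regulators and effectors were between 49.9% and 51.6% identical. These are shares of all alignment columns, in which a gap counts as a difference, so they are lower than over aligned bases alone. Tgtp1 and Tgtp2 differed at only 4 of 1245 coding bases and were 99.7% identical.

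The start sites of the genes also shared sequence. The window from 250 bases before to 50 bases after the RefSeq start was available for 5 of the 6 genes (GRCm38.p6), and it was searched on both strands for the ISRE-type letters (GAAA, any 2 bases, GAAA) and the GAS-type letters TTCNNNGAA. The stretch around the matches is printed for each gene, 5′ to 3′ in the direction of the gene, with every matching base in capitals. Any link between these letters and the levels of the genes was not tested. The stretches are chr11:48871415-48871470 on the minus strand for Irgm1, chr11:58214882-58214942 on the plus strand for Irgm2, chr11:58199491-58199551 on the plus strand for Igtp, chr11:48992294-48992354 on the minus strand for Tgtp1 and chr11:49064253-49064313 on the minus strand for Tgtp2.
Irgm1: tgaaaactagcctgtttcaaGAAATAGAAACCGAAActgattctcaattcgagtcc
Irgm2: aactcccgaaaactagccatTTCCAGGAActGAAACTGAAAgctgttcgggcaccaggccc
Igtp: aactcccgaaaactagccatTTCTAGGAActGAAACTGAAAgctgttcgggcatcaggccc
Tgtp1: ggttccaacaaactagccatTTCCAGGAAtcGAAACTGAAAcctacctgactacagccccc
Tgtp2: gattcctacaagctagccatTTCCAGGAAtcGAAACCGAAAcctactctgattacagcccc
Irgm2, Igtp, Tgtp1 and Tgtp2 each held 1 GAS-type match followed, after 2 other bases, by 1 ISRE-type match. In Irgm1, 2 ISRE-type matches overlapped each other and no GAS-type letters were found. Among all 32851 windows of the table, 3.44% held the ISRE-type letters, 8.30% held the GAS-type letters and 0.454% held both. The arrangement with 2 bases between them, which was looked for after these stretches had been read, occurred in 5 windows (0.0152%), those of Irgm2, Igtp, Tgtp1, Tgtp2 and Gm12185, which is a further IRG gene. A match describes the letters and is not evidence of a bound factor, and copies of one ancestral gene share sequence by descent.

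Before the levels are compared, the counting of reads has to be considered, since the genes resemble and overlap each other. Of all stretches of 100 bases in the transcripts of Tgtp1 and Tgtp2, 73.1% and 76.8% also occurred in another gene, nearly always in the other Tgtp gene. The level of each of these genes is therefore uncertain. Igtp and Irgm2 shared 5.16% and 3.01% of their stretches, and for Irgm1 and Iigp1 the share was 0. In the annotation, 1 Irgm2 transcript starts inside the first exon of Igtp, so 162 exonic bases belong to both genes, which is 4.39% of the exonic bases of Irgm2 and 8.01% of those of Igtp. Tgtp1 shared 223 exonic bases with Gm12185. How reads on such bases were assigned is not given in the sources used here.

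**Figure D1:**
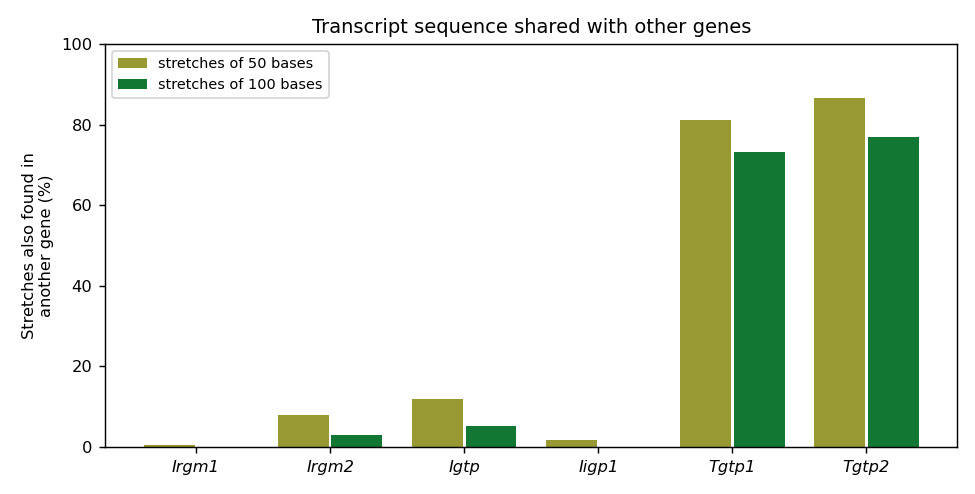
Share (%) of all stretches of 50 or 100 bases in the annotated transcripts of each gene that also occur in transcripts of another gene. The bars of Tgtp1 and Tgtp2 lie at 73.1% and 76.8% for 100 bases, while those of the other 4 genes reach at most 5.16%.

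The tumors had from 15329810 to 16533732 gene counts each. The targeted gene, Tmem173, had 59.1 ± 22.1 FPKM (SD, n = 3) in Tmem173fl/fl and 59.1 ± 4.75 FPKM (SD, n = 3) in Tmem173iΔmye tumors, so whole tumor RNA did not tell the genotypes apart. Lyz2, a marker of myeloid cells whose promoter drives the Cre, had a log2 fold change of -0.064 (SE 0.37) for Tmem173iΔmye over Tmem173fl/fl. The 8 epithelial markers summed to between 5433 and 6626 FPKM in every tumor. Reads of Y-linked genes, 2655 to 3547 per tumor, were found in replicate 1 of Tmem173fl/fl and in replicates 1 and 2 of Tmem173iΔmye, while the remaining tumors had no more than 2, so the sexes were unequally spread over the groups. Across the 16426 genes tested, edgeR called 0 at an adjusted p under 0.05, with 1008 at an unadjusted p under 0.05, while DESeq2 called 27 and limma on log2(FPKM + 1) called 0.

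All 6 IRG genes were well above the filter of a mean of 0.5 FPKM in both groups. FPKM is the read count scaled for gene length and by 1 factor per tumor, so a comparison between genes rests on the length used. For Iigp1 the deposited length is 3121 bases, against 5823 exonic bases in GENCODE M21. For the other members the lengths were equal. The rank of Iigp1 and the shares below therefore depend on this length, while comparisons of 1 gene between tumors do not. In every one of the 6 genes, Tmem173iΔmye replicate 1 had the highest level and Tmem173iΔmye replicate 3 the next highest. Tmem173iΔmye replicate 2 lay above all Tmem173fl/fl tumors for 1 gene, Irgm2. Tmem173fl/fl replicate 2 was the lowest tumor for 5 genes, and Tmem173fl/fl replicate 1 the highest of its group for 5. Tumor RNA holds many cell types, so more cells that express these genes and more RNA per cell cannot be told apart.

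Among the regulators, Irgm2 (chromosome 11 of GRCm38, from 58199618 to 58222782 on the plus strand) had 13.3, 11.2 and 10.9 FPKM in Tmem173fl/fl tumors, in the order of replicates 1, 2 and 3 that is used throughout. In the Tmem173iΔmye tumors it had 53.5, 22.4 and 31.1 FPKM. The 3 Tmem173fl/fl values lay close together and every Tmem173iΔmye tumor was above them, so the groups did not overlap. The mean was 11.8 ± 1.34 FPKM (SD, n = 3) in the former and 35.7 ± 16.0 FPKM (SD, n = 3) in the latter group, a log2 fold change of 1.59 (SE 0.30). Across the genes tested, 6.14% had groups that did not overlap with the Tmem173iΔmye tumors higher, and Irgm2, which was chosen on this contrast, was the single IRG gene among the 6 for which this held.

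Igtp (chromosome 11, from 58199556 to 58207591 on the plus strand) lies next to Irgm2, and both genes together span 23227 bases. Its level was 18.1, 6.31 and 10.1 FPKM in the Tmem173fl/fl tumors. In the Tmem173iΔmye tumors it was 176, 15.02 and 29.8 FPKM. Igtp therefore reached the highest single level of the family, in Tmem173iΔmye replicate 1, and its groups overlapped, since Tmem173fl/fl replicate 1 exceeded Tmem173iΔmye replicate 2. Its means were 11.5 ± 6.04 (SD, n = 3) and 73.8 ± 89.3 FPKM (SD, n = 3), and its log2 fold change was 2.67 (SE 0.89).

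Irgm1 (chromosome 11, from 48861968 to 48871683 on the minus strand) had 11.9, 6.78 and 7.02 FPKM in the Tmem173fl/fl tumors. It had 44.2, 9.13 and 13.7 FPKM in the Tmem173iΔmye tumors. Here too Tmem173iΔmye replicate 2 fell within the range of the Tmem173fl/fl tumors, and the log2 fold change of 1.38 (SE 0.56) was the smallest of the 6 genes.

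Of the effectors, Iigp1 (chromosome 18, from 60376029 to 60392627 on the plus strand) had 10.8, 4.13 and 4.82 FPKM in the Tmem173fl/fl tumors. Its level was 94.5, 5.45 and 13.5 FPKM in the Tmem173iΔmye tumors. A single tumor thus carried most of the difference, and the log2 fold change of 2.51 had an SE of 0.97. Tgtp1 (chromosome 11, from 48985327 to 48994172) and Tgtp2 (chromosome 11, from 49057194 to 49064206), both on the minus strand and first described in T cells, are best read together, because their reads can be exchanged. Their summed counts were 297, 145 and 218 in Tmem173fl/fl and 3041, 210 and 428 in Tmem173iΔmye tumors. Tmem173fl/fl replicate 1 exceeded Tmem173iΔmye replicate 2, so these groups overlapped as well. The log2 fold change was 2.56 (SE 0.98) for Tgtp1 and 2.36 (SE 0.87) for Tgtp2, and Tgtp1 took between 41.8% and 61.5% of the summed counts over the 6 tumors.

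**Figure D2:**
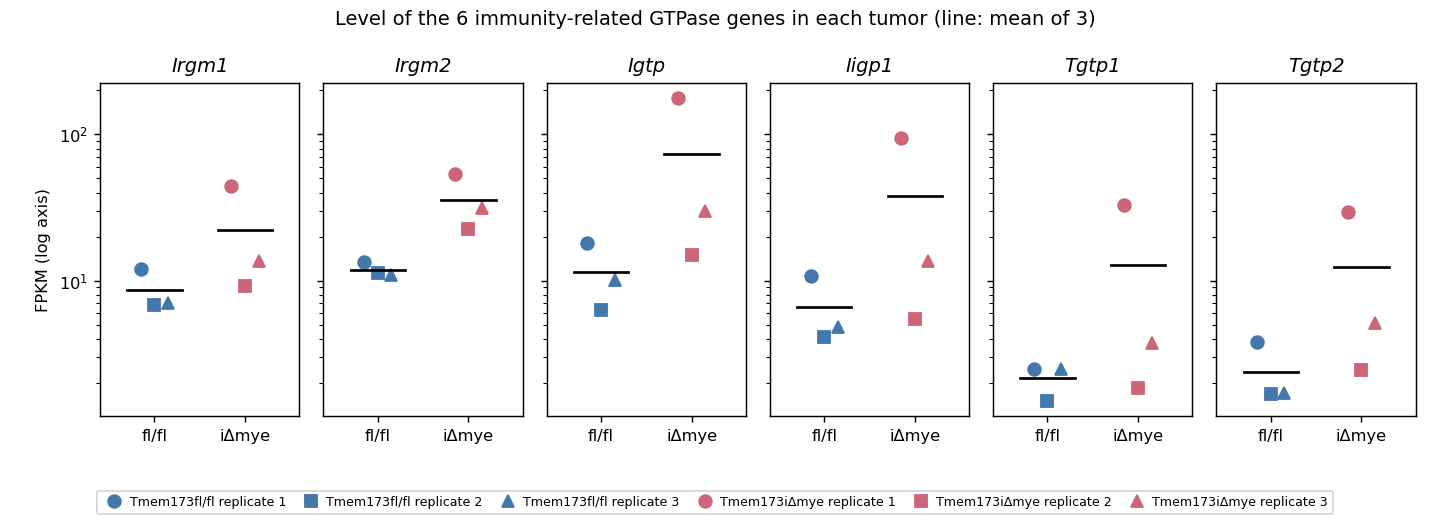
Level of each gene in FPKM (log axis) in the 3 Tmem173fl/fl (fl/fl) and 3 Tmem173iΔmye (iΔmye) tumors, where each symbol is 1 tumor and the line is the group mean. Tmem173iΔmye replicate 1 is the highest tumor in all 6 panels, and only for Irgm2 do the groups lie apart.

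Taking the 6 genes together, all had a log2 fold change above 0, where 49.4% of the genes tested did, and their median was 2.44 against -0.0042 for all genes tested. All 6 had a log2 fold change of at least 1 with an unadjusted p under 0.05, where 1.26% of all genes tested did so in this direction and 0.864% in the other. Nothing is read from these counts, since the genes were chosen on the same comparison. The differences depended on Tmem173iΔmye replicate 1, in which the level was between 4.54 and 15.3 times the Tmem173fl/fl mean. Without this tumor, the median of the 6 genes was 0.59, and the log2 fold change was 0.41 (SE 0.30) for Irgm1, 0.95 (SE 0.47) for Igtp, 0.52 (SE 0.52) for Iigp1, 0.37 (SE 0.40) for Tgtp1 and 0.66 (SE 0.48) for Tgtp2. The value of Irgm2, the second smallest of the 6 with all tumors, was then the largest, at 1.18 (SE 0.18), and its groups still did not overlap, as was the case for 9.45% of the genes tested when this tumor was left out. When the fit also held whether a tumor had Y-linked reads, the log2 fold changes ranged from 1.07 for Irgm1 to 2.13 for Igtp.

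**Figure D3:**
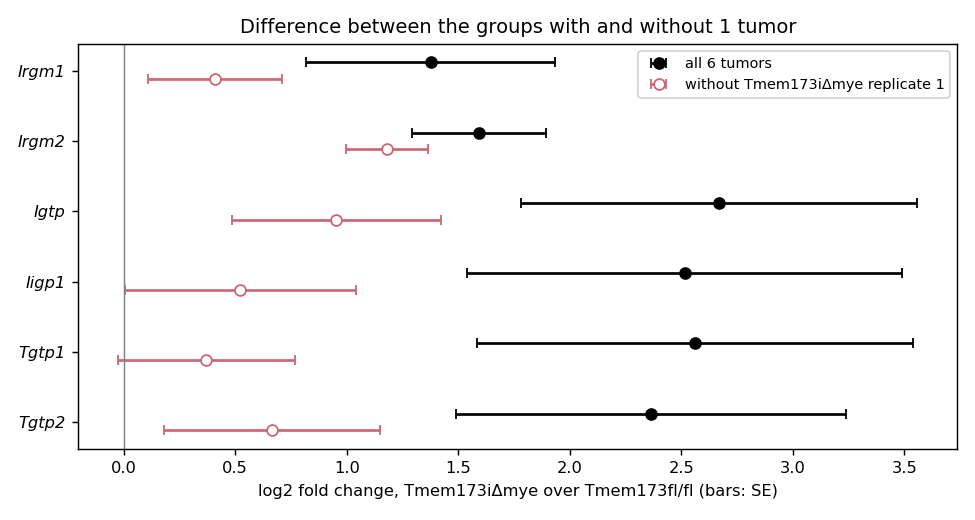
Log2 fold change of each gene for Tmem173iΔmye over Tmem173fl/fl tumors with its SE (bars), for all 6 tumors (filled) and without Tmem173iΔmye replicate 1 (open). Irgm2 moved from 1.59 to 1.18, while Iigp1 moved from 2.51 to 0.52 and Tgtp1 from 2.56 to 0.37.

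The make-up of the IRG mRNA differed in the same tumor. The summed level of the 6 genes was 60.4, 31.6 and 37.0 FPKM in the Tmem173fl/fl tumors and 431, 56.3 and 97.1 FPKM in the Tmem173iΔmye tumors. The effectors Iigp1, Tgtp1 and Tgtp2 made up 36.4% of this sum in Tmem173iΔmye replicate 1 and between 17.3% and 28.2% in the other 5 tumors. Igtp alone made up 41.0% there, against at most 30.7% elsewhere, and Irgm2 12.4%, against 22.1% to 39.8%. The tumor with the most IRG mRNA was thus also the one with the largest shares of Igtp, Iigp1, Tgtp1 and Tgtp2 and the smallest shares of Irgm1 and Irgm2. The lowest share of the effectors, 17.3%, was in Tmem173iΔmye replicate 2.

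**Figure D4:**
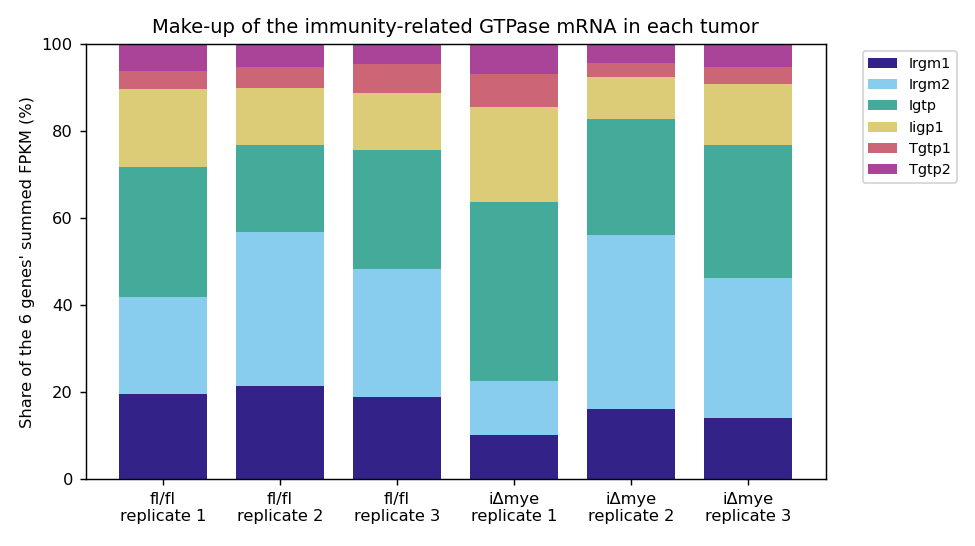
Share (%) of each gene in the summed FPKM of the 6 genes, for each of the 3 Tmem173fl/fl (fl/fl) and 3 Tmem173iΔmye (iΔmye) tumors. In Tmem173iΔmye replicate 1, Irgm2 holds 12.4% and Igtp 41.0%, and Irgm2 holds between 22.1% and 39.8% in the other tumors.

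The order of the genes by mean level differed between the groups, but the order of the Tmem173iΔmye means was that of its replicate 1. Tmem173iΔmye replicates 2 and 3 each had the order of the Tmem173fl/fl means. By mean FPKM it was Irgm2, Igtp, Irgm1, Iigp1, Tgtp2 and Tgtp1 in Tmem173fl/fl tumors, and Igtp, Iigp1, Irgm2, Irgm1, Tgtp1 and Tgtp2 in Tmem173iΔmye tumors. Neighbours in the order of the mean over all 6 tumors, to which Tmem173iΔmye replicate 1 contributed most, were compared within tumors, on log2(FPKM + 1), with an exact two-sided sign-flip permutation test over the 6 tumors and Benjamini-Hochberg adjustment over 5 pairs. This order was Igtp (42.6 FPKM), Irgm2 (23.7), Iigp1 (22.2), Irgm1 (15.5), Tgtp1 (7.49) and Tgtp2 (7.34). Of these pairs, only Irgm1 lay above its lower neighbour, Tgtp1, in 6 of 6 tumors, by 1.43 ± 0.55 (SD) on the log2 scale (exact permutation p = 0.0312, the smallest that 6 tumors allow, adjusted p = 0.156). The level of Tgtp1 is uncertain in every tumor, since 73.1% of its stretches of 100 bases also occurred in another gene. Irgm2 exceeded Iigp1 in 5 of 6 tumors, by 0.79 ± 0.93 (SD, exact permutation p = 0.0938, adjusted p = 0.234). For Igtp and Irgm2, Iigp1 and Irgm1, and Tgtp1 and Tgtp2, the difference within tumors was smaller than its SD (exact permutation p = 0.875, 0.594 and 0.469). Iigp1 was above Irgm1 in 1 of 6 tumors, with a mean difference of -0.13, and Tgtp1 above Tgtp2 in 2 of 6, with a mean difference of -0.11, so within tumors both pairs ran against the order of the means. No pair had an adjusted p under 0.05, and Igtp was above Irgm2 in 2 of 6 tumors. Irgm2 was the highest of the 6 genes in Tmem173fl/fl replicates 2 and 3 and Tmem173iΔmye replicates 2 and 3.

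Across the 6 tumors, the log2 levels of the genes varied together. Pearson's r between pairs of genes ranged from 0.829 to 0.999 over 15 pairs, with a median of 0.968. The lowest value was that of Irgm2 with Tgtp1, and the highest that of Irgm1 with Tgtp2. Without Tmem173iΔmye replicate 1, the values ranged from 0.570 to 0.994. These coefficients describe 6 tumors, 1 of which lies far from the rest, and the genes share libraries and, for the Tgtp genes, reads.

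The genes whose log2 CPM over the 6 tumors was most like the mean of the IRG genes were Pmf1 (r = 0.999), a component of the kinetochore, Stat2 (r = 0.998), a transcription factor of type I interferon signalling, Ifi47 (r = 0.997), Nek6 (r = 0.994), a mitotic kinase, and Gbp5 (r = 0.994), a guanylate-binding protein of the inflammasome pathway. Ifi47 (Irgd) is itself a member of the IRG family and was not on the list. It had 17.96, 9.86 and 11.2 FPKM in the Tmem173fl/fl tumors and 66.1, 14.2 and 22.5 FPKM in the Tmem173iΔmye tumors, so it had the same order of tumors as Irgm1. Pmf1 and Nek6 had similar patterns with much smaller differences, with log2 fold changes of 0.36 (SE 0.20) and 0.22 (SE 0.16). Among 16420 other genes, 622 had an r above 0.9, and the median was -0.0040.

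Of 11 other IRG family genes in the table, 8 were tested and 0 passed an adjusted p of 0.05 in edgeR, with 5 at an unadjusted p under 0.05, all higher in Tmem173iΔmye tumors, where 3.23% of all genes tested were so and 2.9% were lower. Gm12250 (Irgb10), an effector that targets bacteria and is annotated as a processed pseudogene in the table, had 4.17, 2.94 and 1.73 FPKM in the Tmem173fl/fl and 34.2, 3.63 and 6.76 FPKM in the Tmem173iΔmye tumors. Its log2 fold change was 2.33 (SE 0.81), and edgeR gave an adjusted p of 0.742. Without Tmem173iΔmye replicate 1 it was 0.82 (SE 0.45), and 0 of the 8 genes had an unadjusted p under 0.05, where 1.81% of all genes tested were higher and 1.69% lower at this p. Gm4951, Gm4841, F830016B08Rik and Gm12185 passed the filter only through the Tmem173iΔmye group, in which Tmem173iΔmye replicate 1 had 331, 118, 94 and 253 counts, so the count above is not evidence for the family. In Tmem173iΔmye replicate 2 these 4 genes had 8, 3, 2 and 20 counts, against ranges of 3 to 24, 0 to 7, 2 to 11 and 11 to 15 in the Tmem173fl/fl tumors. Gm5431 was at 1.13, 1.02 and 0.216 FPKM in the Tmem173fl/fl and 3.18, 1.28 and 1.74 FPKM in the Tmem173iΔmye tumors, without overlap (log2 fold change 1.39, SE 0.60, adjusted p = 0.742 from edgeR). Also tested were 9930111J21Rik2 (log2 fold change 0.39, SE 0.44) and Irgq, whose protein lacks a working GTPase site. Irgq was at 10.5, 16.8 and 11.7 FPKM in the Tmem173fl/fl and 9.11, 12.1 and 11.4 FPKM in the Tmem173iΔmye tumors. Its log2 fold change was -0.26 (SE 0.20, adjusted p = 0.770 from edgeR), and its lowest level was in Tmem173iΔmye replicate 1. The window of Gm12250 held 2 ISRE-type matches and 1 GAS-type match, that of Gm12185 held 1 of each and that of 9930111J21Rik1 held 1 ISRE-type match. No ISRE-type or GAS-type letters were found in the windows of Irgq, Gm5431 and 9930111J21Rik2. No window was available for Gm4951, Gm4841 and F830016B08Rik. Under the filter, 9930111J21Rik1 had between 16 and 50 counts, Irgc1, a gene of the testis, at most 6 counts and Gm12187, a pseudogene, at most 1 count in any tumor.

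The genes that act before and beside the IRG genes were examined next. In the interferon-gamma signalling list, 17 of 18 genes were tested and 0 passed an adjusted p of 0.05 in edgeR. Without adjustment 3 had a p under 0.05, all higher in Tmem173iΔmye tumors, as were 3.23% of all genes tested. The median log2 fold change was 0.48 and 11 of the 17 genes had their highest level in Tmem173iΔmye replicate 1, where 25.2% of all genes tested did. The ligand, Ifng, had 0, 0 and 2 counts in Tmem173fl/fl and 50, 0 and 3 counts in Tmem173iΔmye tumors. The tumor with the highest IRG levels was therefore the one in which Ifng was above 3 counts, and the part of Ifng in the IRG levels was not tested. The receptor subunits Ifngr1 and Ifngr2 had log2 fold changes of 0.0030 (SE 0.22) and -0.13 (SE 0.16), and the kinases Jak1 and Jak2 of -0.080 (SE 0.13) and -0.14 (SE 0.12).

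Further down this pathway, Irf1, which binds ISRE elements, had 43.1, 21.2 and 28.9 FPKM in the Tmem173fl/fl and 90.2, 34.9 and 41.0 FPKM in the Tmem173iΔmye tumors (log2 fold change 0.83, SE 0.40). It was highest in Tmem173iΔmye replicate 1, as the IRG genes were, and overlapped between the groups. The 3 genes of this list with the smallest p-values were its targets Batf2 (log2 fold change 1.43, SE 0.54), Cd274 (1.47, SE 0.57), which encodes PD-L1, and Ido1 (3.57, SE 1.51), which encodes an enzyme of tryptophan breakdown. Each had an adjusted p of 0.742 from edgeR. Without Tmem173iΔmye replicate 1 these values were 0.53, 0.42 and 0.0091, the median of the list was 0.10, and 0 of its genes had an unadjusted p under 0.05.

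In the type I and III interferon signalling list, 10 of 15 genes were tested, 0 passed an adjusted p of 0.05 in edgeR, and 4 had an unadjusted p under 0.05, all higher in Tmem173iΔmye tumors (3.23% of all genes tested). The ligands were hardly detected, with Ifna1, Ifna4 and Ifnl3 at 0 and Ifnb1 and Ifnl2 at no more than 1 count in every tumor. Usp18, an inhibitor of the type I receptor and itself an interferon target, had 6.56, 5.49 and 7.35 FPKM in the Tmem173fl/fl and 14.6, 16.2 and 8.51 FPKM in the Tmem173iΔmye tumors. Its log2 fold change was 1.01 (SE 0.26), with an adjusted p of 0.742 in edgeR, and without Tmem173iΔmye replicate 1 it was 0.93 (SE 0.29). Usp18 thus resembled Irgm2 in that the groups did not overlap, but its highest tumor was Tmem173iΔmye replicate 2. Irf9, a DNA-binding subunit of the type I interferon response, differed by 0.47 on the log2 scale (SE 0.15), also without overlap. Irf7 differed by 0.95 (SE 0.32), and edgeR gave both an adjusted p of 0.742. The median log2 fold change of the list was 0.24. Of the 10 genes, 7 were highest in Tmem173iΔmye replicate 1, where 25.2% of all genes tested were. Without this tumor, the median was 0.18, and the values of Irf9 and Irf7 were 0.34 and 0.59. Then 1 gene of the list had an unadjusted p under 0.05 and was higher, against 1.81% of all genes tested.

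Of 14 other interferon-inducible GTPase genes, which encode guanylate-binding, Mx and GVIN proteins, 13 were tested, 0 passed an adjusted p of 0.05 in edgeR, and 8 had an unadjusted p under 0.05, all higher in Tmem173iΔmye tumors (3.23% of all genes tested). Their median log2 fold change was 1.51, against 2.44 for the 6 IRG genes. The smallest p-values were those of Gbp6 (log2 fold change 2.09, SE 0.63), Gbp10 (2.95, SE 0.96), which passed the filter only through the Tmem173iΔmye group, and Gbp5 (2.03, SE 0.71), each with an adjusted p of 0.742 from edgeR. Tmem173iΔmye replicate 1 was the highest tumor for 12 of the 13 genes, against 25.2% of all genes tested. Without it, the median was 0.60 and 1 gene had an unadjusted p under 0.05 and was higher, against 1.81% of all genes tested.

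The genes of ATG8 conjugation and autophagy, the machinery that directs IRG proteins to vacuoles and away from other membranes, had small differences. All 18 genes were tested, 0 had an unadjusted p under 0.05 in edgeR, and their log2 fold changes ranged from -0.24 for Ulk1 (SE 0.14) to 0.32 for Gabarapl1 (SE 0.19), with a median of 0.069. Gabarapl2, an ATG8 protein, had a value of 0.28 (SE 0.17). Of 7 genes whose proteins are recruited to damaged or pathogen-holding vacuoles, 0 had an unadjusted p under 0.05 in edgeR, and those with the smallest p-values were Traf6 (log2 fold change -0.35, SE 0.17), Lgals9 (0.51, SE 0.27) and Rabgap1l (-0.28, SE 0.15).

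Tmem173iΔmye replicate 1, the tumor with the highest IRG levels, also had the highest summed T cell, cytotoxic and neutrophil markers. The same held for the macrophage, B and plasma cell, epithelial and endothelial markers, but not for those of dendritic cells, fibroblasts and smooth muscle. Tmem173iΔmye replicate 3, the next in IRG levels, was below Tmem173fl/fl replicate 1 for T cell and neutrophil markers. For the cytotoxic markers it was above every Tmem173fl/fl tumor. The 8 T cell markers summed to 11.3, 6.24 and 5.96 FPKM in the Tmem173fl/fl and 17.6, 13.1 and 8.66 FPKM in the Tmem173iΔmye tumors. All 7 that were tested had a log2 fold change above 0, where 49.4% of all genes tested did. In edgeR, 0 of them passed an adjusted p of 0.05. At an unadjusted p under 0.05, 1 was higher (Trac), where 3.23% of all genes tested were. Without Tmem173iΔmye replicate 1, all 7 stayed above 0 and 0 had an unadjusted p under 0.05. The 8 natural killer and cytotoxic markers summed to 6.33, 2.40 and 4.12 FPKM and to 13.6, 7.65 and 8.52 FPKM, without overlap. Only 3 of these 8 passed the filter, and 1 of the 3 had groups that did not overlap with Tmem173iΔmye higher. This held for 6.14% of all genes tested. The 6 neutrophil markers summed to 254, 80.2 and 202 FPKM in the Tmem173fl/fl and 545, 142 and 131 FPKM in the Tmem173iΔmye tumors. The 9 macrophage markers, at 397 to 621 FPKM in Tmem173fl/fl and 388 to 665 FPKM in Tmem173iΔmye tumors, the 8 dendritic cell markers, at 4.76 to 8.63 and 7.38 to 11.6 FPKM, and the 7 B and plasma cell markers, at 165 to 251 and 222 to 319 FPKM, overlapped between the groups. So did the summed markers of fibroblasts, smooth muscle and endothelium. A sum mostly follows its most abundant genes. In the B and plasma cell list, 4 of 7 genes had a log2 fold change below 0 and 3 above, with a median of -0.65. No marker of these lists was at 0 in every tumor. Their part in the IRG levels was not tested.

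**Figure D5:**
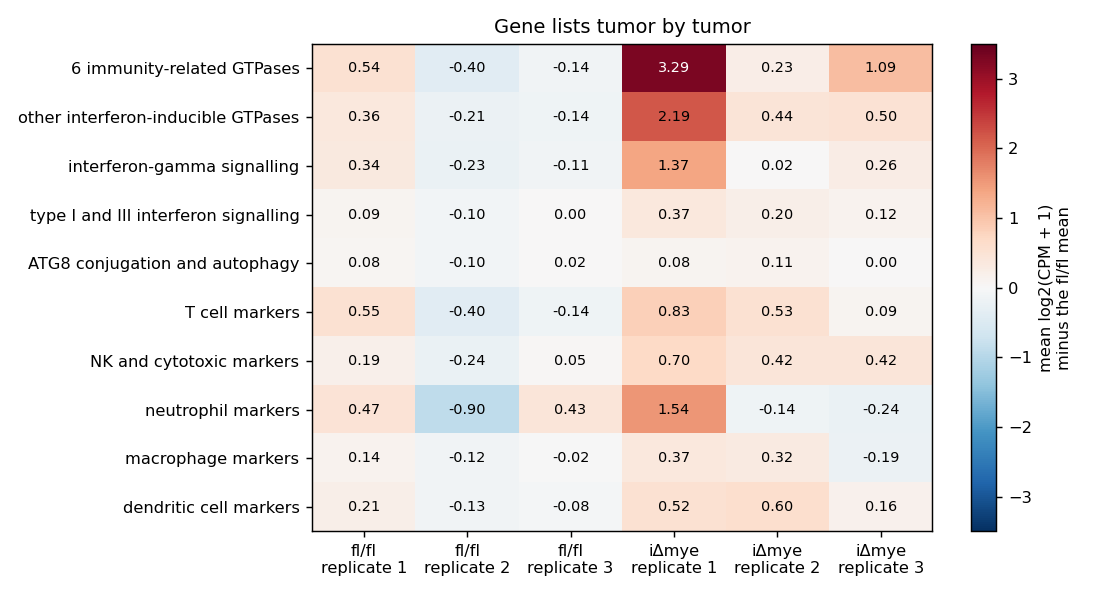
Mean log2(CPM + 1) of each gene list in each tumor, minus the mean of the 3 Tmem173fl/fl tumors (colour and number). The 6 IRG genes stand at 3.29 in Tmem173iΔmye replicate 1, 0.23 in replicate 2 and 1.09 in replicate 3, while the ATG8 conjugation and autophagy genes stay between -0.10 and 0.11 in all tumors.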

How the data were processed

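RNA from 6 tumors was sequenced. The submitters' processing notes name CASAVA 1.8, fastp, HISAT2 2.0.5, featureCounts 1.5.0-p3 and DESeq2 1.20.0, with the build GRCm38. Raw counts and FPKM values of each gene were deposited by the authors, and FPKM equals the count divided by gene length and by 1 median-of-ratios scale per tumor. The NEBNext Ultra kit was used, and the strand setting of the counting is not given in the sources used here. The authors' columns of group means, fold changes and p-values were not used.

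The test was that of edgeR 4.0.16 on counts (R 4.3.3, quasi-likelihood, TMM, group as the only term, Benjamini-Hochberg adjustment) over 16426 genes whose FPKM averaged 0.5 or more. SE is the absolute log2 fold change over the square root of F. CPM uses TMM library sizes. DESeq2 1.42.0 and limma 3.58.1 were alternatives. In simulated counts of 16426 genes, the script was checked to recover known fold changes. Sequences came from RefSeq (GRCm38.p6) and GENCODE M21 and were compared with Biopython 1.88. The genes, lists and tests were chosen with earlier results of these data known. The genes named are the 6 members, Tmem173, Lyz2, other IRG genes, up to 3 genes of each list with the smallest p-values and the 5 genes most like the members. Ifng, Irf1, the receptors and kinases, the interferon ligands and Trac were named after their values were seen.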

Additional observations from a re-analysis of the deposited data

How the results depend on the processing

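Under the 13 alternatives to the fit, all 78 log2 fold changes of the 6 IRG genes stayed above 0, and the 5 that moved by more than the SD between replicates (pooled over the groups, log2 scale) were those of Irgm1, Igtp, Iigp1, Tgtp1 and Tgtp2 without Tmem173iΔmye replicate 1. Leaving out 1 tumor at a time, the median of the 6 genes ranged from 0.59 to 2.94. The number of genes with an adjusted p under 0.05 was 0 with edgeR, 27 with DESeq2 and 6 without a filter, and 0 to 1 when 1 tumor was left out. Those past both limits were 349, against 136 with limma on log2(FPKM + 1), 872 without a filter, 211 with Y-linked reads as a covariate and 218 to 636 without 1 tumor. Of the 65 tested genes of the 5 pathway lists, 15 had an unadjusted p under 0.05, where 6.14% of all genes tested did. This number was 3 with limma, 24 without a filter, 4 with the Y-linked covariate and 2 to 22 without 1 tumor. It was 2 without Tmem173iΔmye replicate 1, where 1.81% of all genes tested were higher at this p and 1.69% lower. It was 3 without Tmem173fl/fl replicate 3 and 4 without Tmem173fl/fl replicate 2. For the other settings the share of all genes is not given here, so these numbers have no background beside them. The cause of these changes was not tested. In a fit with replicate block terms, 24 genes of these lists and 377 of all genes passed, 270 of them shared with the 349, and the log2 fold changes ranged from 1.10 for Irgm1 to 2.04 for Igtp. Same-numbered tumors had correlations across genes of 0.31, 0.0085 and 0.15, against -0.37 to 0.22 between groups for tumors with different numbers. So few values cannot tell whether the number pairs the tumors. Between Igtp and Irgm2, the difference in log2 level of 0.11 became -0.74 on CPM, which is not divided by length, and ranged from -0.21 to 0.28 without 1 tumor. The sign-flip test was not run without single tumors, since 5 tumors cannot reach a p under 0.05. The median r of the most similar genes stayed at 0.993 or above.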
